A study of Mus musculus with 9 samples.

Results

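Mitochondrial ribosomal proteins were followed across 9 RNA-seq libraries of mouse brown fat and cultured brown adipocytes, some with reduced Setdb1 and the others their controls. The members are the protein-coding genes whose symbol is Mrpl or Mrps followed by a number and that are present in every deposited table. This rule gave 77 genes, 48 Mrpl and 29 Mrps, of 29386 genes in all tables together and of 14183 protein-coding genes present in every table. The rule used symbols only and no measured value. Another 4 genes with such a symbol were pseudogenes (Mrpl23-ps1, Mrpl48-ps, Mrps36-ps1 and Mrps36-ps2) and were left out.

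Setdb1 encodes an enzyme that methylates histone H3 at lysine 9. In brown adipose tissue (BAT), 2 control libraries from Setdb1 fl/fl; Adipoq-Cre- mice were compared with 2 libraries from Setdb1 fl/fl; Adipoq-Cre+ mice, called Setdb1 AKO. Both groups carry the floxed alleles, and the Adipoq promoter drives Cre in adipocytes, so other cells of the tissue keep the gene. All 4 BAT samples are also tagged TN_CE, a term whose meaning is not given in the labels, so whatever it stands for is shared by both groups. In primary brown adipocytes, Setdb1 flox/flox; Rosa26Cre-ERT2 cells, in which 4-hydroxytamoxifen (4-OHT) activates a ubiquitously expressed Cre, gave 1 library after 1 μM 4-OHT and 1 after ethanol vehicle (ETOH). Other primary brown adipocytes gave 1 library after control siRNA (siNC) and 2 after siRNA against Setdb1 (siSetdb1). Age, sex and pooling of animals are not given in the labels, nor is whether the 2 siSetdb1 libraries came from separate cultures. Their titles, siSetdb1_1 and siSetdb1_2, also do not tell whether both used the same siRNA. The p-values therefore cover the spread among these libraries and nothing wider.

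Mitochondria translate the few proteins encoded in their own DNA, all of them core subunits of the respiratory chain and the ATP synthase, on a ribosome of their own. The RNAs of this ribosome come from mitochondrial DNA, while every one of its proteins is encoded in the nucleus, made in the cytosol and imported. Brown adipocytes are packed with mitochondria and burn fuel through the uncoupling protein Ucp1. Known activators of nuclear genes for mitochondria include NRF1, the ETS factor GABP and YY1. By their known place in the ribosome, 30 members are large-subunit proteins with a bacterial counterpart and 20 are large-subunit proteins found only in mitochondria, among them Mrps18a and Mrps30. A further 15 are small-subunit proteins with a bacterial counterpart and 11 are mitochondria-specific proteins of the small subunit. The remaining member, Mrps36, is now known as a component of the alpha-ketoglutarate dehydrogenase complex and not of the ribosome.

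The DNA just before the start site is shown for 6 members that recur in the results. Sequences are from the RefSeq promoter table on GRCm38.p6, 5′ to 3′ on the strand of the gene. Bases that the GENCODE M21 annotation places in an exon of any gene were left out. Mrpl12 is shown from chr11:120484387-120484612 (+ strand), Mrpl34 from chr8:71464676-71464925 (+), Mrpl45 from chr11:97315466-97315715 (+), Mrps2 from chr2:28467816-28468065 (+), Mrpl50 from chr4:49521094-49521175 (-) and Mrps12 from chr7:28741822-28741991 (-). Capitals mark letters of 4 motifs searched on both strands: GCGCA, any base and GCGC (NRF1), CCGGAAG (ETS), AAGATGG (YY1) and GGGCGG (Sp1). The stretch before Mrpl50 lies between its start and that of Zfp189, and the stretch before Mrps12 between its start and that of Sars2, which is why both are shorter.
Mrpl12: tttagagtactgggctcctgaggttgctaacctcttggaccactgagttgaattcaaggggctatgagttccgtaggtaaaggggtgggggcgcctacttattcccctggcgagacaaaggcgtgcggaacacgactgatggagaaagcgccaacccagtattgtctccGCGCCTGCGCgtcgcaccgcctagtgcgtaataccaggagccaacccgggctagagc
Mrpl34: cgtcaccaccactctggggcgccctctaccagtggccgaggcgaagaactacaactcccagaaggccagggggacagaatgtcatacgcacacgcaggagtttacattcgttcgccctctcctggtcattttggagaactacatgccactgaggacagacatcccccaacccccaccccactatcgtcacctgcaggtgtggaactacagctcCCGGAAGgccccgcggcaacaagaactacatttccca
Mrpl45: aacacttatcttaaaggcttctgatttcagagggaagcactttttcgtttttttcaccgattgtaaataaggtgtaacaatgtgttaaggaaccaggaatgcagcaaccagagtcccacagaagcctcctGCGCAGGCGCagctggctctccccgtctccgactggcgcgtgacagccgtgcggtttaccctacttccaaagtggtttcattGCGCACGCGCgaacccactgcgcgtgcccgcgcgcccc
Mrps2: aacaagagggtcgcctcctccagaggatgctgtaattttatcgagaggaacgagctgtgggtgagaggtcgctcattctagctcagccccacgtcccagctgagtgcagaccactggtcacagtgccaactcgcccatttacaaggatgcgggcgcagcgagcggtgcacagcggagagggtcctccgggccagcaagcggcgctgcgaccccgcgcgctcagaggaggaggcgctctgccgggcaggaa
Mrpl50: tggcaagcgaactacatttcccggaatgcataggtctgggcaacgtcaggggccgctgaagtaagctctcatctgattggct
Mrps12: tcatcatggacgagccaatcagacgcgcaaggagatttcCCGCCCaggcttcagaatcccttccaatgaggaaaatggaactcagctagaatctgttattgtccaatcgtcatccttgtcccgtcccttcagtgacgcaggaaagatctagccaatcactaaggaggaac

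Mrpl12 held 1 match to the NRF1 letters, 81 to 72 bases before the RefSeq start. Mrpl45 held 2, at 120 to 111 and at 38 to 29 bases. Mrpl34 held an ETS match at 37 to 31 bases and Mrps12 an Sp1 match at 131 to 126 bases, while the stretches shown for Mrps2 and Mrpl50 held none of the 4. Of the 77 members, 68 had an entry in the promoter table. In the 300-base window from 250 bases before to 50 after the start, the NRF1 letters stood in 19.1% of member promoters, against 10.4% of the 9995 promoters of protein-coding genes tested in BAT and 4.78% of all 27025 promoters. The ETS letters stood in 35.3% of member promoters, 18% of those of tested coding genes and 9.12% of all. The YY1 letters stood in 19.1%, 7.22% and 6.48%, and the Sp1 letters in 50%, 64.5% and 35.9%. With only the 250 bases before the start, the shares were smaller. For members and tested coding genes they were 14.7% and 8.28% (NRF1), 23.5% and 13.7% (ETS), 8.82% and 4.2% (YY1) and 48.5% and 59.3% (Sp1). The median GC content of the 250 bases before the start was 58.4% for members, 60% for tested coding genes and 52% for all. These matches are descriptions of letters, and binding was not measured.

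Total reads on genes ran from 15979479 to 16940622 in BAT, from 17593799 to 18468152 in the siRNA cells and were 29911734 (ETOH) and 30176359 (4-OHT). Setdb1 had a log2 change of -1.42 in Setdb1 AKO BAT (limma adjusted p = 0.0216), of -1.02 in siSetdb1 cells (limma adjusted p = 0.0537) and of -0.73 in 4-OHT cells, where there is no test. Every adipocyte marker of 8 was detected in every library, Ucp1 included. The ETOH and 4-OHT cultures also carried macrophage markers, with a summed normalised count of 102436 and 59711.4 over 8 genes, against 867.4 in siNC cells. Their fibroblast and preadipocyte markers summed to 356729 and 326613, against 60208.2 in siNC cells. Most of the ETOH sum came from Col1a1 and Col3a1, at 257020 and 90407 against 36711.7 and 16921.5 in siNC cells. Pdgfra, Dpt and Dcn were also higher in ETOH than in siNC cells. Ly6a (1560 against 4648.8) and Lum (34.4 against 106.6) were lower, and Pi16 was nearly equal. The experiments were normalised separately, so these values are set side by side with no test.

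The members were well measured everywhere. No member had 0 reads in any library, the lowest value was 210 reads, and all 77 passed the filter on low counts in each experiment. Together they held 0.494% and 0.501% of the reads on genes in control BAT, 0.518% and 0.421% in Setdb1 AKO 1 and 2, 0.618% in siNC, 0.622% and 0.588% in siSetdb1, 0.261% in ETOH and 0.281% in 4-OHT cells. The Wilson 95% intervals of these shares cover counting error only and are narrow, for example 0.417% to 0.424% for Setdb1 AKO 2. Setdb1 AKO 1 was above both controls and Setdb1 AKO 2 below both.

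Levels per length, in reads per kilobase of gene length scaled to the total reads of the library (RPKM) and averaged over the 4 control libraries, had a median of 22.5 and ran from 4.96 to 240. Within this range 74 of 77 members lay within 4-fold of the median. Mrpl34, a small protein of the large subunit, stood highest at 240, with 321 in control BAT, 226 in siNC and 90.3 in ETOH cells. It was followed by Mrps21, a small-subunit protein, at 85.8, by Mrpl2, a core protein of the large subunit, at 76.2 and by Mrpl12, the stalk protein that recruits translation factors, at 75.7. The last 3 lie close together, and their order differed between tissue and cells: Mrps21 was at 121 in control BAT and 76.7 in siNC cells, Mrpl12 at 80 and 97. The lowest were Mrpl19 at 4.96, Mrps10 at 5.54, Mrps25 at 5.97 and Mrpl32 at 6.19. For Mrps25 and Mrpl19 the value rests on gene lengths that overlap a neighbour on the opposite strand, Nr2c2 over 69.8% of the exon bases of Mrps25 and Gcfc2 over 36% of those of Mrpl19. For Mrpl32 the gene length of 4982 bases covers the whole gene from start to end (chr13:14608184-14613165). These ranks therefore depend on the gene lengths used, and a low value per length need not mean few transcripts.

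The order of the members was much alike in tissue and culture. Spearman's rho over the 77 members was 0.991 between the 2 control BAT libraries, 0.935 between control BAT and siNC cells, 0.914 between ETOH and siNC cells and 0.844 between control BAT and ETOH cells, as descriptions over genes that share gene lengths. In control BAT the median member, at 22.2, stood at percentile 85.6 of the tested genes, whose median was 3.54. The tables were normalised separately and differ in their content of mitochondrially encoded reads, so levels between them are set side by side with no test. In siNC cells 64 members were above their level in control BAT, and the median ratio over all 77 members was 1.39. In ETOH cells 8 were above it, and the median ratio over all 77 was 0.564. Mrpl47 had the highest ratio of siNC over control BAT, from 4.17 to 14, and Mrps21 the lowest.

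**Figure D1:**
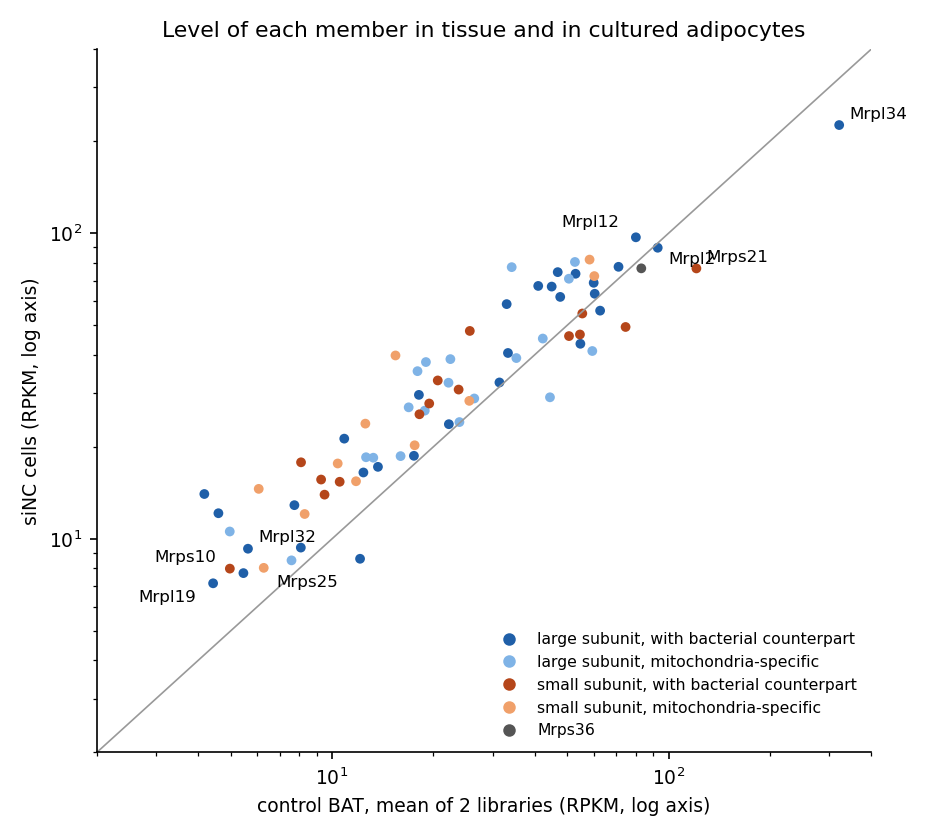
Level of each of the 77 members in control BAT (horizontal, mean of 2 libraries) and in siNC cells (vertical, 1 library), both in RPKM on log axes. The line marks equal values and colours mark the ribosomal subunit. Mrpl34 stands apart at the top right (321 and 226), and 64 of 77 members lie above the line.

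Loss of Setdb1 in adipocytes of BAT left no member called. None of the 77 passed the limma test at a Benjamini-Hochberg false discovery rate of 0.05, against a background of 1.68% of 14466 genes. At an unadjusted p below 0.05, 8 members passed (10.4%, against 17.7% of all genes), 7 higher (all genes 8.64%) and 1 lower (9.08%). On recovered reads edgeR and DESeq2 also called 0 members, against 250 and 651 of the 14466 genes. The median log2 change of the members was 0.01, the same as that of all genes tested, with 39 members positive and 38 negative (50.6% of all genes were positive). Every 95% interval but 3 lay within a 2-fold change either way, and 44 of 77 lay within 1.5-fold, so with 2 libraries per group changes of 2-fold could be bounded for 74 members and smaller ones only for some. Among markers of cell types in BAT, 1 of 8 fibroblast and preadipocyte genes was called (Pi16, log2 change 2.87, limma adjusted p = 0.0327). All 8 of 8 were positive, with a median of 0.19. Of 8 adipocyte genes 5 were positive (median 0.12) and of 8 macrophage genes 4 (0.02), with 0 called in each list. Erythroid genes were also not called, but 5 of 5 measured ones were positive with a median of 0.58, and 2 had an unadjusted p below 0.05. Of 7 endothelial genes 4 were positive (median 0.03), of 3 measured skeletal muscle genes 1 (-0.22) and of 3 measured lymphocyte genes 0 (-0.73), with 0 called in each list. In these bulk samples a change in the number of adipocytes and a change in RNA per adipocyte cannot be told apart.

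**Figure D2:**
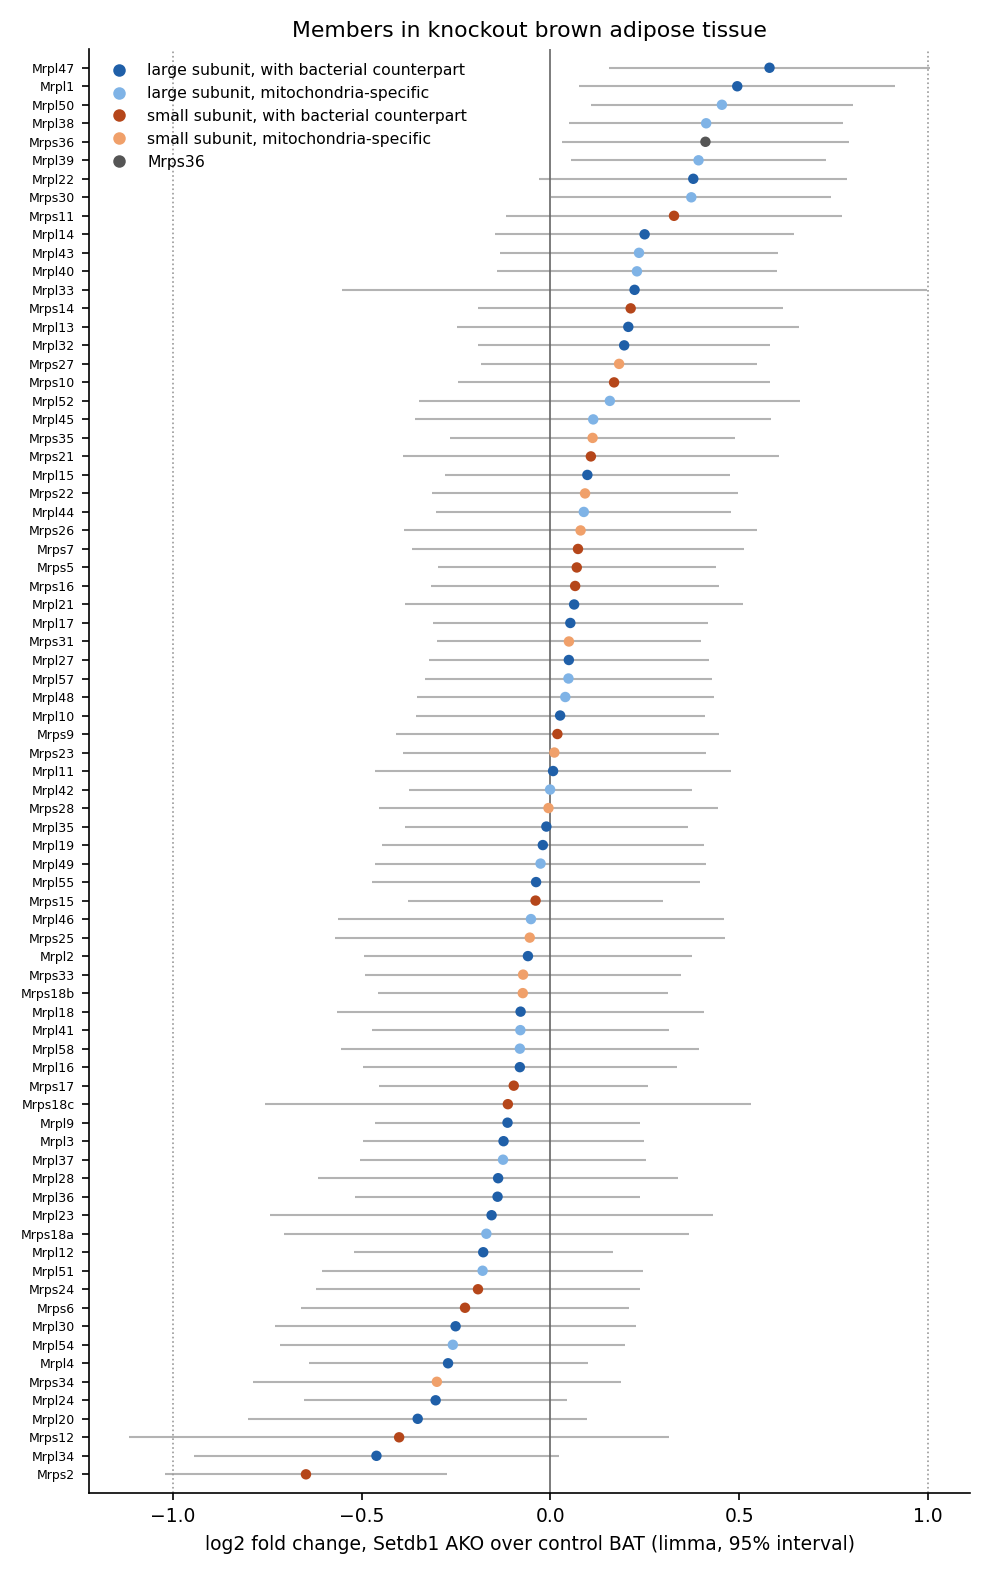
Fitted log2 fold change of every member in Setdb1 AKO over control BAT (2 libraries each), ordered by value, with the 95% interval of the limma fit as a bar and dotted lines at 2-fold; colours mark the ribosomal subunit. Mrps2 lies lowest at -0.65 and Mrpl47 highest at 0.58, and 8 of 77 intervals exclude 0.

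The smallest p in BAT belonged to Mrps2, a protein of the small subunit with a bacterial counterpart (chr2:28468066-28471178). Its normalised counts were 889.7 and 1022.7 in control BAT and 639 and 579.8 in Setdb1 AKO, so the groups did not overlap. The log2 change was -0.65 (SE 0.16), with adjusted p = 0.1 in limma. Across scalings, filters, tools and left-out libraries, the lowest adjusted p of any member ran from 0.0647 to 0.514. Mrps2 was at 1754.5 in siNC and 1663 and 1651.7 in siSetdb1 cells, and at 1346 reads in ETOH and 1348 in 4-OHT cells.

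The next members by p were all higher in Setdb1 AKO than in control BAT, in both libraries, and all belong to the large subunit. Mrpl47, which lies at the exit of the peptide tunnel, counted 283.4 and 302.3 in controls and 480.5 and 399.3 in Setdb1 AKO, a log2 change of 0.58 (SE 0.18, limma adjusted p = 0.165). Mrpl50, a mitochondria-specific protein, counted 787 and 817.8 against 1045.5 and 1155.5, a log2 change of 0.45 (SE 0.15, limma adjusted p = 0.179). Mrpl1, of the mobile stalk beside the exit for spent tRNA, counted 325.6 and 300.3 against 479.5 and 405.5, a log2 change of 0.49 (SE 0.18, limma adjusted p = 0.212). Mrpl39, a mitochondria-specific protein related to threonyl-tRNA synthetases, and Mrpl38 had log2 changes of 0.39 and 0.41, with limma adjusted p = 0.22 and 0.23. None of these passed the test. For Mrpl47, exons of Ndufb5 and Actl6a on the opposite strand cover 13.9% and 10.2% of its exon bases, and the strand setting of the counting is not given in the sources used here.

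By class, the median log2 change in BAT was -0.03 for the 30 conserved large-subunit proteins, 0.04 for the 20 mitochondria-specific ones, 0.02 for the 15 conserved small-subunit proteins and 0.01 for the 11 mitochondria-specific ones. Both Setdb1 AKO libraries lay above both controls for 16 members (20.8%, against a background of 25.1%) and below both for 6 (7.79%, against 24.9%). Mrps36, the member outside the ribosome, counted 1617.1 and 1741 in controls and 2475.8 and 2008.8 in Setdb1 AKO, a log2 change of 0.41 (SE 0.16, limma adjusted p = 0.252). Of proteins with a known special role, Mrpl12 had a log2 change of -0.18, its anchor Mrpl10 of 0.03, Mrpl11 at the base of the same stalk of 0.01 and Mrpl45, which lines the tunnel exit towards the inner membrane, of 0.11. Mrpl3, near the peptidyl transferase centre, had -0.12, Mrpl44, with a fold related to ribonuclease III, 0.09, and Mrpl58, a peptidyl-tRNA hydrolase built into the large subunit, -0.08. In the small subunit, Mrps7 had 0.07, Mrps16 0.07, Mrps22 0.09 and Mrps34 -0.30, and Mrps12, of the decoding centre, -0.40, with limma adjusted p = 0.503 for Mrps34 and 0.542 for Mrps12.

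The 3 relatives of the bacterial protein S18 occupy different places, since Mrps18a sits in the large subunit, and Mrps18b and Mrps18c sit in the small. Their BAT log2 changes were -0.17, -0.07 and -0.11, and those in siSetdb1 cells 0.11, 0.17 and 0.22. In 4-OHT cells Mrps18b went from 539 to 711 reads, a log2 ratio of 0.45, Mrps18a from 772 to 871, a ratio of 0.23, and Mrps18c from 432 to 403, a ratio of -0.05. None of the tested changes passed in limma, with a lowest adjusted p of 0.75 in BAT.

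While no member was called between the groups, the 2 Setdb1 AKO libraries differed from each other in nearly every member. Setdb1 AKO 1 was above Setdb1 AKO 2 in 76 of 77 members (98.7%), with a median log2 difference of 0.30 and a range from -0.14 to 1.08. Over all genes tested the same difference was positive in 48.6%, with a median of -0.00, and over the 4076 genes with counts between the 10th and 90th percentile of the members it was positive in 52.1%. In the control pair, control 1 was above control 2 in 23 of 77 members, with a median of -0.09, and the siSetdb1 pair had 59 of 77 higher in library 1, with a median of 0.09. The difference was wider in the Setdb1 AKO pair than in the control pair for 68 of 77 members. With libraries scaled to total reads in place of the authors' scaling, 74 of 77 members were higher in Setdb1 AKO 1, with a median of 0.26. Each pair is 1 library against 1, so no test is given.

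**Figure D3:**
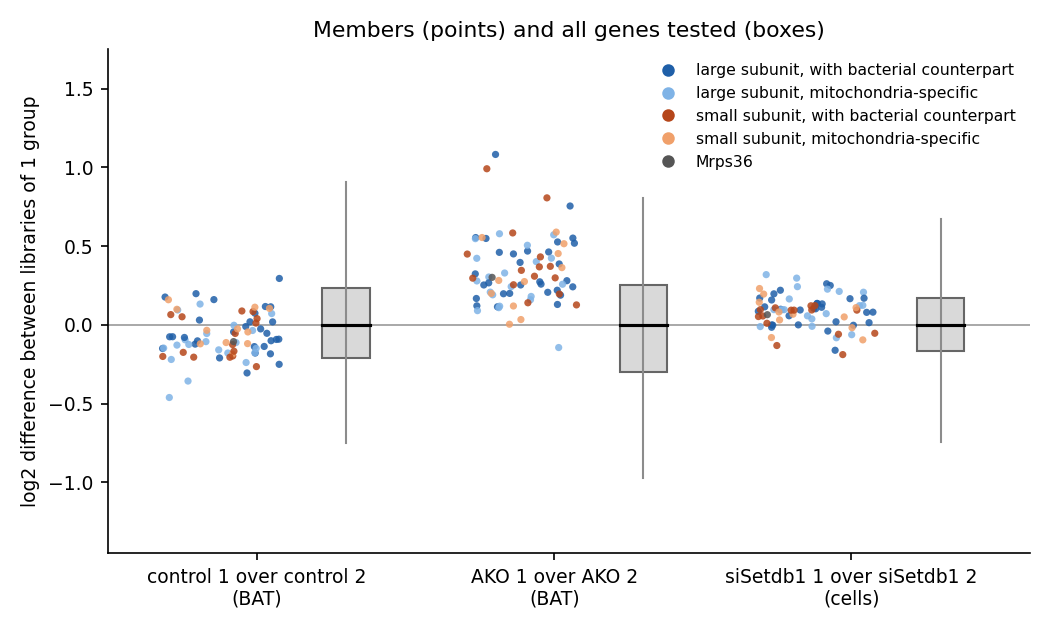
Log2 difference between the 2 libraries of the same group for each member (points, coloured by ribosomal subunit) beside all genes tested (box from the 25th to the 75th percentile with the median, line from the 5th to the 95th). In the Setdb1 AKO pair 76 of 77 points lie above 0 with a median of 0.30, while the median of all genes is at -0.00.

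All classes took part. Each of the 30 conserved large-subunit proteins was higher in Setdb1 AKO 1 (median 0.28), as were 19 of 20 mitochondria-specific large-subunit proteins (0.27), 15 of 15 conserved small-subunit proteins (0.35) and 11 of 11 mitochondria-specific ones (0.28). The widest was Mrpl33, a small protein of the large subunit, at 697.1 and 568.2 in controls, 1069.1 in Setdb1 AKO 1 and 504.5 in Setdb1 AKO 2. Mrps12 counted 776.9 and 895.9 in controls, 891.1 in Setdb1 AKO 1 and 447.8 in Setdb1 AKO 2, a log2 difference of 0.99 within the pair. For both genes the Setdb1 AKO libraries lie on either side of at least 1 control, and the mean hides a spread larger than any fitted change of a member. Mrps18c (0.81) and Mrpl23 (0.75) followed. The exception was Mrpl50, at 1045.5 and 1155.5, and Mrps27 was nearly equal at 582.4 and 580.9.

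Against the control mean, the median member was at 0.19 in Setdb1 AKO 1, with 64 of 77 above, and at -0.17 in Setdb1 AKO 2, with 18 of 77 above. For 32 members (41.6%, against a background of 8.09% of all genes tested) Setdb1 AKO 1 lay above both controls and Setdb1 AKO 2 below both. The median member change therefore turned with the library left out: leaving out Setdb1 AKO 1 gave -0.17 and leaving out Setdb1 AKO 2 gave 0.19, against 0.01 with both. Without control 1 it was -0.02 and without control 2 it was 0.04. No member was called by limma in any of these 4 fits, in which the lone library is assumed to vary like the other group. At an unadjusted p below 0.05, 15 members passed without Setdb1 AKO 1 (19.5%, against 17.8% of all genes) and 13 without Setdb1 AKO 2 (16.9%, against 17.6%), shares close to the background.

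**Figure D4:**
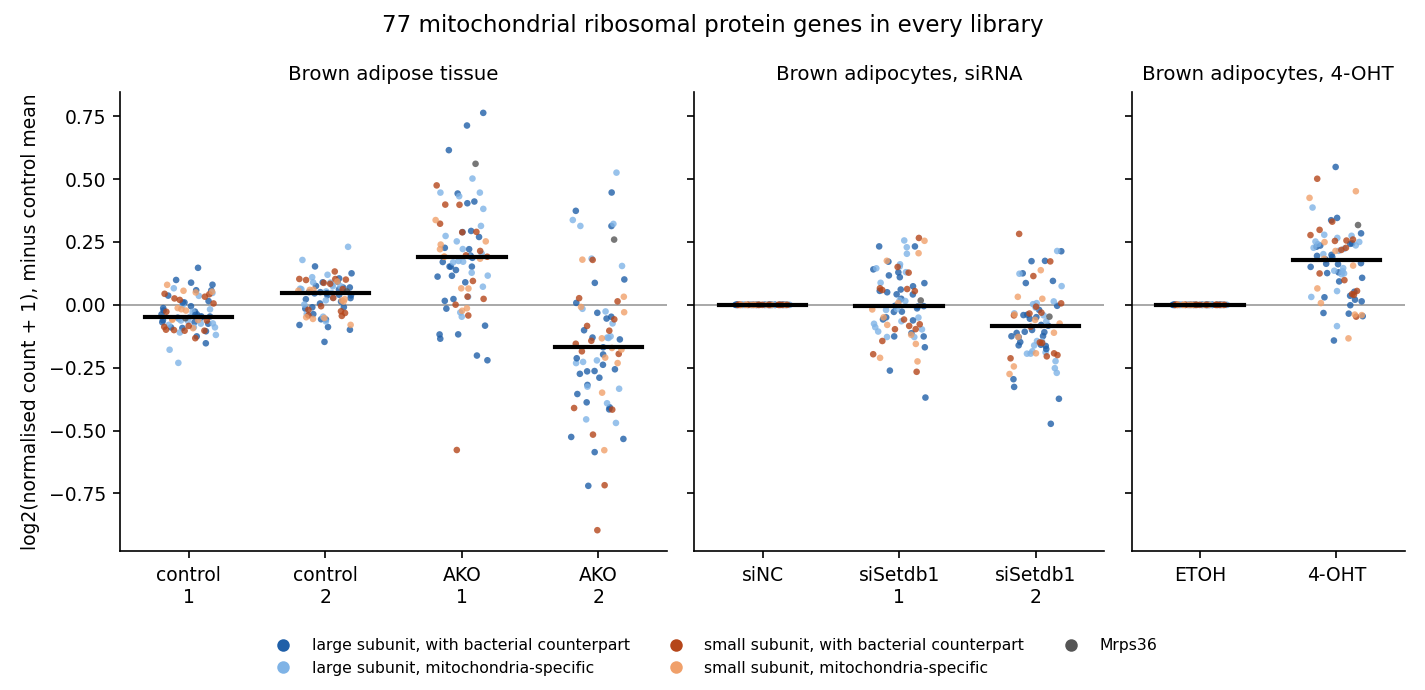
Every member in every library as log2(normalised count + 1) minus the mean of the control libraries of its experiment (points, coloured by ribosomal subunit), with the median as a black bar; siNC and ETOH are single controls and lie at 0. Median values are 0.19 in Setdb1 AKO 1 and -0.17 in Setdb1 AKO 2, -0.01 and -0.08 in the siSetdb1 libraries and 0.18 in 4-OHT cells.

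Other nuclear genes for mitochondria also leaned higher in Setdb1 AKO 1 than in Setdb1 AKO 2, to differing degrees. The 5 ribosomal subunits with other symbols (Dap3, Ptcd3, Chchd1, Aurkaip1 and Gadd45gip1) were all higher, with a median log2 difference of 0.46. Of 17 proteins of import, carbon metabolism and protein folding in mitochondria, 15 were higher (median 0.31), as were 17 of 20 mitochondrial tRNA synthetases and related enzymes (0.18) and 13 of 15 translation factors (0.15). The 25 factors of ribosome assembly were split, 15 against 10 (0.07), and so were the 17 genes of mitochondrial DNA upkeep and transcription, 9 against 8 (0.02). Of 13 mitochondrially encoded proteins 8 were higher (0.12). The 2 mitochondrial ribosomal RNAs went the other way. Their summed normalised count was 128852 in Setdb1 AKO 1 and 320175 in Setdb1 AKO 2, with 120132 and 215919 in controls.

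Markers of cell types moved between the same 2 libraries. The summed normalised count of 8 adipocyte markers was 418083 in Setdb1 AKO 1 and 304037 in Setdb1 AKO 2, with 353022 and 331811 in controls. Ucp1 counted 104610 and 62875.3 in the 2 Setdb1 AKO libraries, Adipoq 21358 and 12828.5. Fibroblast and preadipocyte markers went the other way, at 10760.3 and 15209.7, with 11622.7 and 10373.1 in controls. Endothelial markers were at 14825.9 and 11721.4, with 11299.8 and 12903.4 in controls, and macrophage markers at 3564.5 and 4267.2, with 4682.6 and 3011.3 in controls. The sum of erythroid markers was above both controls in both Setdb1 AKO libraries, at 13546.8 and 12931.6 against 8227.9 and 9525.9. Singly this held for Hba-a1, Hbb-bt and Alas2. Hbb-bs and Hba-a2 were at 4142.4 and 9.3 in Setdb1 AKO 2, below their 4173 and 192.8 in control 2. Skeletal muscle markers were at 120.4 and 72.2, with 43.1 in control 1 and 601.6 in control 2, which stood apart. In control 2 all 8 muscle genes had reads, while 4 of 8 were at 0 in each of the other 3 libraries. Lymphocyte markers were at 80.3 and 55.7, with 148.6 and 96.4 in controls. The part of these in the difference between the 2 libraries, or between the groups, was not tested. Setdb1 itself was low in both, at 156.4 and 190.9 against 455 and 472.8 in controls, and mitochondrially encoded reads made up 15.8% and 15.4%.

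Knockdown of Setdb1 by siRNA in cultured brown adipocytes also left no member called. Limma called 0 of 77 at a false discovery rate of 0.05, against a background of 0.0394% of 15224 genes, with a lowest adjusted p of 0.637. EdgeR and DESeq2 called 0 members, against 37 and 11 of the 15224 genes. At an unadjusted p below 0.05, 1 member passed (1.3%), against 5.06% of all genes. The fit has 1 residual degree of freedom, treats the 2 siSetdb1 libraries as replicates and takes siNC to vary like siSetdb1. All 77 intervals lay within 2-fold and 76 within 1.5-fold. The median log2 change was -0.04 (all genes -0.00), with 29 members positive and 48 negative, where 49.3% of all genes were positive. Both siSetdb1 libraries lay below siNC for 39 members (50.6%, against a background of 33.8%) and above it for 18 (23.4%, against 34.1%). The median was -0.01 from siSetdb1 1 alone and -0.08 from siSetdb1 2 alone.

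The 1 member past the unadjusted threshold was Mrpl34, at 2499.5 in siNC and 1935.6 and 1800.4 in siSetdb1 cells. Its log2 change was -0.42 (SE 0.11, unadjusted p = 0.00347 in the limma fit across all genes, adjusted p = 0.637). It was followed by Mrpl4, of the wall of the peptide tunnel, at 3283.1 against 2920.6 and 2618.1, a change of -0.25 with limma adjusted p = 0.94. Mrps26, a mitochondria-specific protein of the small subunit, went from 1401.2 to 1198.8 and 1157.8, also -0.25. Mrpl24, at the rim of the tunnel exit, went the other way, from 1335.1 to 1568.7 and 1547.8, a change of 0.22. Mrpl12 and Mrpl36 had changes of -0.21 and -0.24. The limma adjusted p of each of these was 0.94. Markers of macrophages were lower in siSetdb1 cells, with a summed count of 470.2 and 425.7 against 867.4 in siNC. Lyz2 alone made up 244.2 and 166 against 526.9 of these sums, and the other genes had few counts. Of 7 measured macrophage genes 6 were lower and 1, C1qb, was higher. Fibroblast and preadipocyte markers summed to 54028.5 and 58735.9 against 60208.2, with 6 of 8 genes lower and 2 higher. Adipocyte markers stood at 335570 and 347122 against 333306.

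In the 4-OHT experiment, with 1 library each and so no test, members leaned higher by a small amount. No member was past 1.5-fold in either direction, where 4.21% of 13969 genes were higher by that much and 6.12% lower. The log2 ratio of 4-OHT over ETOH was positive for 67 of 77 members (87%, against a background of 51.7%), with a median of 0.18 against 0.01 for all genes. Past 1.2-fold, a limit chosen after the data were seen, 15 members were higher (19.5%, against 17.2%) and 0 lower (against 18.6%). The 95% counting interval of the ratio excluded 0 on the higher side for 49 members (63.6%, against 27% of all genes) and on the lower side for 0 (against 24.4%). With libraries scaled to total reads the median ratio was 0.11 with 55 members positive, while the median of all genes moved to -0.05.

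The highest ratios were those of Mrpl33 (1442 to 2033 reads, log2 ratio 0.55, counting interval 0.45 to 0.65), Mrps10 (1022 to 1395, 0.50), Mrps18b (539 to 711, 0.45), Mrps23 (1534 to 1986, 0.43) and Mrpl49 (571 to 720, 0.39). They belong to both subunits. For Mrps18b, an antisense gene overlaps 30.5% of its exon bases. The lowest were Mrpl23, at the tunnel exit (569 to 497 reads, -0.14), Mrps25 (651 to 572, -0.13), Mrpl57 (1120 to 1018, -0.08), Mrps18c and Mrpl34 (1640 to 1532, both -0.05), each with a counting interval that includes 0. Levels between genes are not compared here, only each gene between the 2 libraries.

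The other genes of mitochondrial translation leaned the same way in that pair of libraries. All 20 tRNA synthetases and related enzymes had positive ratios (median 0.29), led by Sars2, the seryl-tRNA synthetase, at 0.64. Of 15 translation factors 14 were positive (0.15), of 25 assembly factors 20 (0.18), of 5 subunits with other symbols 4 (0.17), of 17 other mitochondrial proteins 16 (0.22) and of 17 genes of mitochondrial DNA upkeep and transcription 12 (0.10). Mitochondrially encoded reads were 1.98% in ETOH and 2.66% in 4-OHT cells. Adipocyte markers were higher in 4-OHT cells for 8 of 8 genes, with a median log2 ratio of 0.36 and a sum of 392660 against 311260. Macrophage markers were lower for 8 of 8, with a median of -0.59, and fibroblast and preadipocyte markers for 5 of 6 (-0.43). The part of these in the ratios of the members was not tested.

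**Figure D5:**
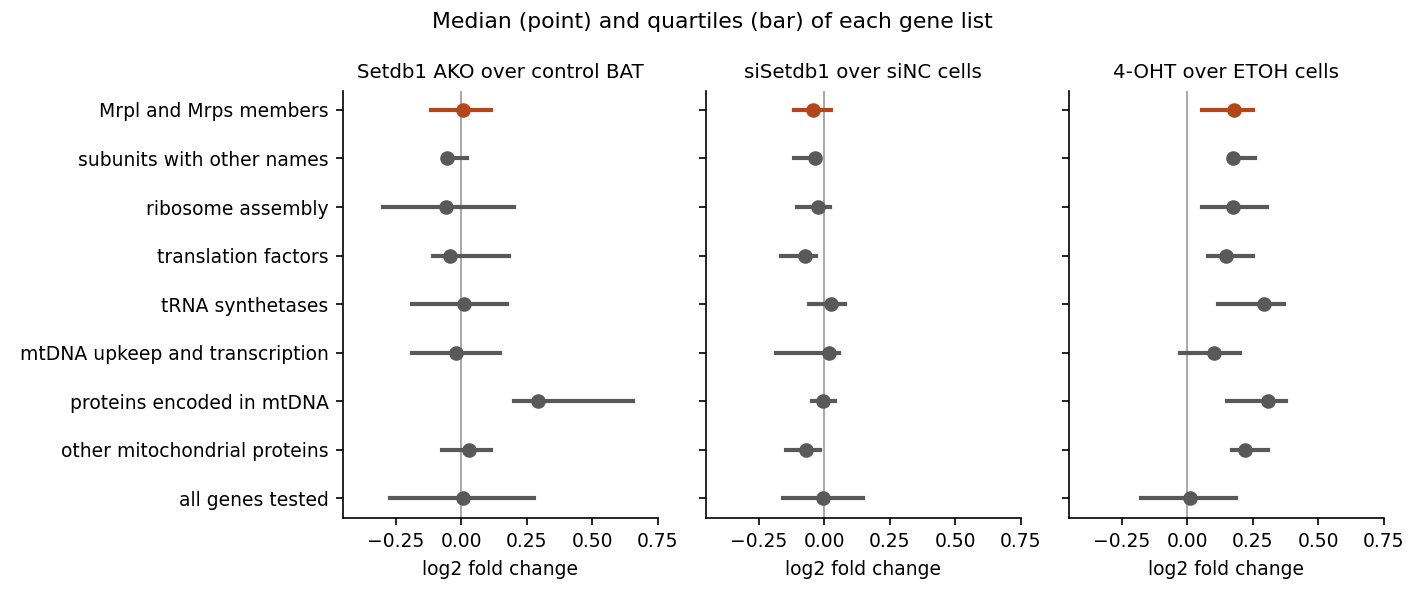
Median (point) and quartiles (bar) of the log2 fold change of each gene list in the 3 experiments, with the 77 members in orange; 4-OHT over ETOH is a ratio of single libraries. The member median lies at 0.01 in BAT, -0.04 in siRNA cells and 0.18 in 4-OHT cells, beside 0.01, -0.00 and 0.01 for all genes tested.

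No gene of these lists was called in BAT or siRNA cells: 0 of 25 assembly factors, 0 of 15 translation factors, 0 of 20 tRNA synthetases and related enzymes, 0 of 17 genes of mitochondrial DNA upkeep and transcription, 0 of 5 subunits with other symbols and 0 of 13 mitochondrially encoded proteins. In BAT their medians were -0.06, -0.04, 0.01, -0.02, -0.05 and 0.30 on the log2 scale. At an unadjusted p below 0.05 in limma, 2, 1, 3, 1, 0 and 2 of them passed in BAT and 1, 0, 1, 1, 0 and 2 in siRNA cells. On recovered reads edgeR called 0 of these genes in BAT and 1 in siRNA cells (mt-Co3, log2 change 1.30 in limma). DESeq2 called 5 in BAT (Gfm1, Cars2, Twnk, mt-Atp6 and mt-Co2, with limma log2 changes of 0.63, -1.58, -0.89, 1.34 and 0.79) and 0 in siRNA cells. Over all genes edgeR called 250 of 14466 in BAT and 37 of 15224 in siRNA cells, and DESeq2 called 651 and 11. The authors' deposited BAT results likewise give no member an adjusted p below 0.05, where 331 genes were higher and 247 lower of 22721. Their comparisons in cells set 1 library against 1, so calls from these are not cited.

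Across the experiments, 6 members lay above their controls in every library: Mrpl1, Mrpl22, Mrpl40, Mrpl50, Mrps14 and Mrps30 (7.79%, against a background of 6.38% of 12215 genes). Only Mrpl34 lay below its controls in every library (1.3%, against 5.13%). Mrpl50 had log2 changes of 0.45, 0.21 and 0.22 in BAT, siRNA and 4-OHT cells. Mrpl22, of the tunnel wall, had 0.38, 0.17 and 0.18, and Mrpl1 had 0.49, 0.12 and 0.35. Mrpl40 had 0.23, 0.14 and 0.27, Mrps30 had 0.37, 0.12 and 0.12 and Mrps14 had 0.21, 0.08 and 0.04. For Mrps14 the last value depends on the scaling, since its reads were 1698 in ETOH and 1686 in 4-OHT cells. Mrpl34 counted 2832.5 and 3370.4 in control BAT and 2686.7 and 1875.7 in Setdb1 AKO, with changes of -0.46, -0.42 and -0.05. The 3 experiments share no library, and Pearson's r of the changes over the 77 members was 0.319 between BAT and siRNA, 0.277 between BAT and 4-OHT and 0.184 between siRNA and 4-OHT, as a description over genes.

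The 35 members not named by rule had log2 changes from -0.35 to 0.33 in BAT (15 positive, lowest limma adjusted p 0.394), from -0.24 to 0.20 in siRNA cells (10 positive, lowest limma adjusted p 0.94) and from -0.04 to 0.34 in 4-OHT cells (34 positive).

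The members lie on 17 chromosomes, with at most 11 on 1, and 18 of 77 (23.4%) start within 1000 bases of the start of a protein-coding gene on the opposite strand that points away, against 9.98% of 12711 protein-coding genes tested in BAT. Some partners serve the same organelle, such as Sars2 beside Mrps12, with 172 bases between starts. Of the partners, limma called 1 in BAT, Eme2 beside Mrps34, which had a log2 change of -1.38 (adjusted p = 0.0414). Mrps34 itself shares 63.4% of its exon bases with Mapk8ip3 and 37% with Nme3, so its counts are uncertain. Overlap of exons with another gene touched 32 members, 16 of them over more than 10% of their exon bases.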

How the data were processed

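RNA was enriched with oligo(dT) beads, made into libraries with NEBNext Ultra II chemistry and read as pairs, per the labels' protocols. Of tools, STAR 2.7.10a and featureCounts 2.0.3 stand beside Trimmomatic 0.39 and DESeq2 1.36.0 in the submitters' processing notes, with the build GRCm38. How strand and multi-mapped reads were counted is not given in the sources used here. The BAT and siRNA tables deposited by the authors hold a scaled signal per gene and library, and the 4-OHT table deposited by the authors holds raw counts. The authors' deposited tables also give a log2 fold change and a p-value per gene. Of these, only the numbers of members and of all genes past 0.05 in BAT are cited.

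Dividing the signal by its step in each library returned read counts, with 100% of values no more than 0.05 reads from an integer. The 2 siRNA tables were joined through the siNC library. Its recovered reads, rounded to integers, were equal in all 19381 shared genes, while its scaled signals differed between the tables by a factor of 1.0024. Limma 3.58.1 (R 4.3.3, eBayes with a trend) was fitted on log2(normalised count + 1) over all genes with at least 10 normalised counts in 2 BAT libraries or 1 siRNA library, with Benjamini-Hochberg adjustment and calls at 0.05. A fold change on this scale understates changes of genes with few reads. The 4-OHT pair was described by log2 ratios of TMM-scaled counts (prior count 2), where 1 library reached 50 counts. Alternatives were edgeR 4.0.16 and DESeq2 1.42.0 on recovered reads, other scalings, pseudocounts and filters, the replicate block and left-out libraries. The fit was tested on simulated data. Files were matched to GENCODE M21 on GRCm38 (72 of 77 members with the same start and end) and to the RefSeq promoter table.

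Members were named by these rules: the 6 smallest p in BAT and in siRNA, the 5 largest 4-OHT ratios each way, the 4 highest and 4 lowest levels, members on 1 side of their controls in every library, and 17 of known role, together 42. Mrps27 in the account of the Setdb1 AKO pair was chosen after its values were seen. The members, gene lists and tests were chosen with earlier results of these data known.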

Additional observations from a re-analysis of the deposited data

Results flagged for a closer look

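For 7 members every Setdb1 AKO library lay on one side of both BAT controls while both siSetdb1 libraries lay on the other side of siNC. This is 9.09% of the 77 members, against 15% of the 13413 genes tested in both experiments. The difference between the 2 experiments was not tested, and no member was called in either. Mrpl38 had a log2 change of 0.41 in BAT and -0.10 in siRNA cells, Mrps11 of 0.33 and -0.24, Mrpl14 of 0.25 and -0.04 and Mrpl43 of 0.23 and -0.19. Mrps27 had 0.18 and -0.10 and Mrps31 0.0488 and -0.11. Mrpl24 went the opposite way, with -0.30 in BAT and 0.22 in siRNA cells. Exons of Twnk overlap 33.4% of those of Mrpl43, exons of Rrnad1 26.3% of those of Mrpl24 and exons of Tmem63b 11.2% of those of Mrpl14. For Mrps27, exons of 6430562O15Rik on the opposite strand overlap 24.2%.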

How the results depend on the processing

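No member was called by limma in BAT or siRNA cells under any alternative that was run, nor by edgeR or DESeq2. The median member change in BAT ran from -0.08 (libraries scaled to total reads, where the median of all genes was -0.08) to 0.03 (edgeR), and from -0.17 to 0.19 when 1 library was left out. With the replicate block it was 0.01 with 0 members called. Deviations of same-numbered libraries had a correlation of -0.015 over all genes tested, so no pairing by library number was seen. With 2 libraries per group a small shared effect could be missed. In siRNA cells the median ran from -0.05 to -0.02, and from -0.08 to -0.01 with 1 siSetdb1 library left out, a value with no test. The median 4-OHT ratio ran from 0.177 to 0.181, except 0.114 with libraries scaled to total reads, where the median of all genes was -0.05. Past 1.2-fold in place of 1.5-fold, 15 members were counted in place of 0. The scaling to total reads and the 1.2-fold limit were added after the data were seen. All genes called in BAT numbered 243 in limma, 651 in DESeq2 and 11 without a filter. With 2 libraries per group the BAT intervals bound nearly all members to within 2-fold and only part of them to within 1.5-fold. A design with 1 library per group gives no replicate check.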
